A study of Ciona robusta with 6 samples.

Results

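The 30 genes described here were higher in *Neurog* > *Neurog* cells than in *Neurog* > *lacZ* control cells, while their mean level in cells labelled *Neurog* > *Neurog:WRPW* lay close to the control. They were chosen from the deposited counts, expressed as counts per 1000000 of each library's total (CPM). A gene was taken where both lacZ libraries had at least 1 CPM, where the lower Neurog library had at least 4 CPM and at least 2.5 times the CPM of the higher lacZ library, and where the mean of the Neurog:WRPW libraries was 0.67 to 1.5 times the lacZ mean. These bounds were met by 30 of 15232 gene models, after 4 genes (*Neurog*, *Dpysl*, *Fgf20* and *Calcr*) were left out by name. All 30 were among the 12253 genes that passed the filter on low counts and were fitted. The choice used the values of all 6 libraries, so the levels and differences of these genes are given as a description and carry no test.

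All 6 libraries came from *Ciona robusta* embryos at 9.5 hpf and 20°C, with 2 biologically independent replicates in each of 3 conditions. The Neurog libraries came from embryos electroporated with a plasmid that expresses wild-type *Neurog*, those labelled Neurog:WRPW from embryos given *Neurog* fused to the WRPW motif, and the lacZ libraries from embryos given *lacZ*, a bacterial enzyme gene, in its place. In every condition the plasmid was driven by the *Neurog* driver of the Bipolar Tail Neuron (BTN) lineage, and cells carrying a BFP or RFP reporter under the same driver were sorted with no counterselection. The sorted cells are therefore the whole lineage that the driver labels, with any other cell in which the driver is active, and plasmid uptake is mosaic in such embryos. RNA was amplified from few cells, and the number sorted differed between the replicates of every condition. Far fewer were sorted for the second Neurog:WRPW replicate than for the first. The second lacZ replicate and the first Neurog replicate also had fewer cells than their partners.

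*Neurog* itself (KH.C6.129), which checks the labels, was counted at 4180 and 4480 CPM in Neurog, at 105.5 and 166 CPM in the libraries labelled Neurog:WRPW and at 95.4 and 124.6 CPM in lacZ. Its reads come from the plasmids and the chromosomal gene together, and they were high in the Neurog libraries only. The fusion also encodes Neurog, so this gene does not bear out the Neurog:WRPW label, and those libraries are called by their label throughout. Beside it stand 12 BTN markers, which were listed with results of these libraries known and are no independent check of the labels. Their summed level was 14510 and 8637 CPM in Neurog, 1212 and 719 CPM in the libraries labelled Neurog:WRPW, and 3134 and 1631 CPM in lacZ. The thresholds of the study are a LogFC (log2) beyond 0.6 with an unadjusted p under 0.05, here in the fit of all genes. In Neurog vs. lacZ all 12 markers passed upward, where 4.36% of all genes tested did. In Neurog:WRPW vs. lacZ 9 of them passed downward, where 1.19% of all genes did. Of the 48 genes annotated in BTNs by *in situ* hybridization, 36 passed upward in Neurog vs. lacZ and 20 downward in Neurog:WRPW vs. lacZ.

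Neurog is a proneural transcription factor of the basic helix-loop-helix family, and in *Ciona* it acts as a determinant of BTNs. These neurons delaminate from the ectoderm near the tail tip, migrate and extend long processes in opposite directions. Most cells of the control lineage become epidermis and only some become BTNs. The WRPW motif recruits a Groucho corepressor, so that the fusion is meant to shut down genes that Neurog would turn on. In libraries of bulk cells, fewer cells of a type and less RNA per cell cannot be told apart.

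The transcripts of 6 of the genes have a probe for *in situ* hybridization (ISH), and 3 of these, *Sord*, *Pde11-related* and *Dhcr7*, are annotated as expressed in BTNs. The stretches of probe template below show which transcript each annotation refers to, and *Tff1* is added as a gene annotated as negative by ISH. Each is the first 150 bases of the longest open reading frame in the copy of the template, written 5′ to 3′, and the capitals mark a start codon where the stretch begins with one.
Sord (KH.L105.1): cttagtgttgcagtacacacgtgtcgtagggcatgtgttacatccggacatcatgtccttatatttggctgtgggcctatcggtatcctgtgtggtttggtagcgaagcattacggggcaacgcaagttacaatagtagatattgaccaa
Pde11-related (KH.L18.65): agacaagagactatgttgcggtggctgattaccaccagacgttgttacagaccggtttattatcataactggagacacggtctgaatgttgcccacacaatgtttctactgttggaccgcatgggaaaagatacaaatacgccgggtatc
Dhcr7 (KH.C2.506): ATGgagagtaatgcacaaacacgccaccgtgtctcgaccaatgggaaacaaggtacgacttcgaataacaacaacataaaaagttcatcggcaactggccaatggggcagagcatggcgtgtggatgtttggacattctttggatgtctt
Tff1 (KH.C14.253): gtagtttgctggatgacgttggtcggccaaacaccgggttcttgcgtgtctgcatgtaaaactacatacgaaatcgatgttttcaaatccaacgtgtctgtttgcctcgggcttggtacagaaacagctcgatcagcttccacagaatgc

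Within the lacZ floor of 1 CPM, 11029 gene models could have met the other bounds, and 136 met those on Neurog. Of these 136, 100 had a mean Neurog:WRPW level below 0.67 times lacZ, 33 lay within the band (3 of them left out by name) and 3 lay above 1.5 times. The median ratio of Neurog:WRPW to lacZ was 0.502 over the 136 genes, and 24.3% of them fell in the band, against 82.2% of all 11029 genes at the floor. The median ratio of all genes at the floor was itself 0.914, or -0.13 on the log2 scale, so a ratio of 1 on this scale is slightly above the bulk of genes. The median over the 30 genes was 0.838. With TMM-scaled library sizes it was 0.903 over the 30 and 0.986 over all genes at the floor. Most genes that met the bounds on Neurog thus had a mean Neurog:WRPW level below 0.67 times lacZ, and the 30 belong to the smaller part that did not.

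**Figure D1:**
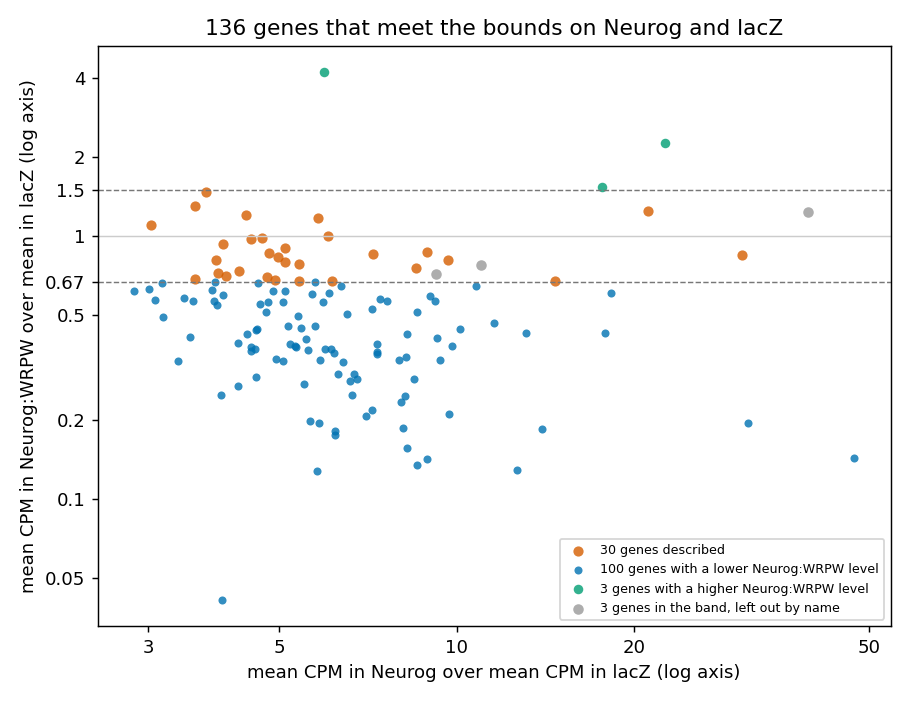
Each point is 1 of the 136 genes that meet the bounds on Neurog and lacZ, with the mean CPM in Neurog over the mean in lacZ on the x axis and the mean CPM in Neurog:WRPW over the mean in lacZ on the y axis (log axes, no unit). Dashed lines mark the bounds of 0.67 and 1.5, and the 30 genes described lie between them, with 100 genes below and 3 above.

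The mean near the control did not hold for every library. Both Neurog:WRPW libraries lay within 0.67 to 1.5 times the lacZ mean for 14 of the 30 genes. For the other 16 at least 1 of the libraries lay outside. The share of all genes with both libraries in the band was not counted, so this split is not shown to be particular to the 30. For 2 genes, KH.S1555.3 and KH.L96.82, 1 Neurog:WRPW library was below the band and the other above it. Both Neurog:WRPW libraries were below both lacZ libraries for 7 genes, where the share of all genes tested was 18.6%, and above both for 0 genes, where it was 6.86%. For 8 genes both lay between the lacZ libraries, and for 15 the groups overlapped in another way. On TMM-scaled CPM, 6 were below both, where the share of all genes tested was 13.7%, and 1 was above both, where it was 11.5%. The mean of Neurog:WRPW was under that of lacZ for 23 genes and at or over it for 7, where the median ratio of all genes at the floor was also under 1 (0.914). On TMM-scaled CPM it was under for 20 genes and over for 10, where that median was 0.986. The rule bounded only the mean of the group, so a mean in the band was fixed beforehand, while single libraries were free to lie outside it. The description as unmoved refers to that mean only.

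**Figure D2:**
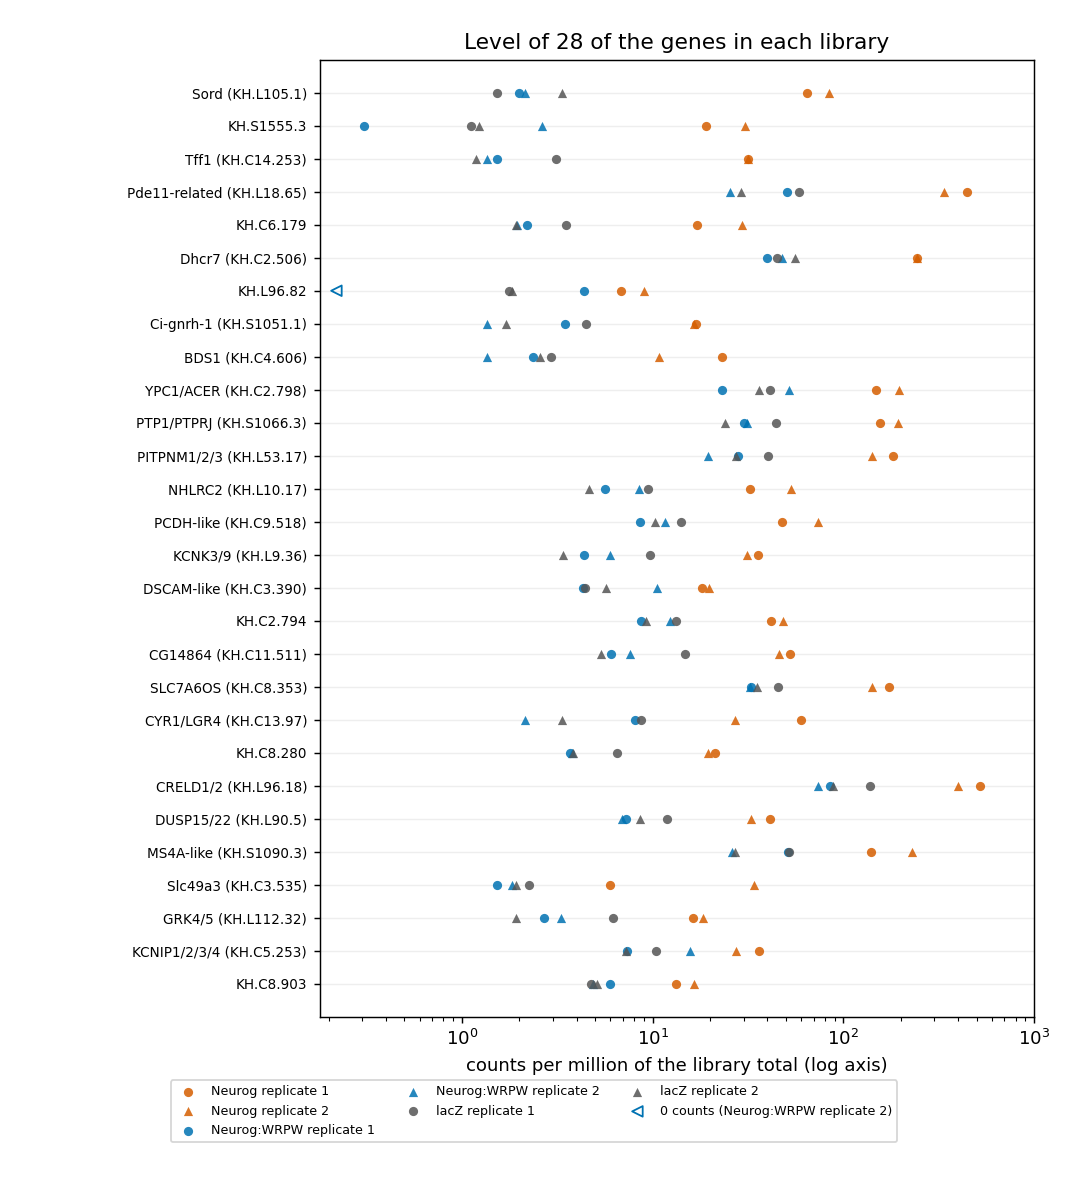
CPM (log axis) of 28 of the 30 genes in each of the 6 libraries, ordered from the largest to the smallest ratio of the lower Neurog library to the higher lacZ library, with circles for replicate 1 and triangles for replicate 2. The Neurog libraries (orange) lie to the right of all others in every row, while the Neurog:WRPW (blue) and lacZ (grey) libraries mix, and an open triangle marks the library in which KH.L96.82 had 0 counts.

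In the fit of all genes, the LogFC (on the log2 scale) in Neurog vs. lacZ had a median of 2.19 over the 30 genes, with a range of 1.44 to 4.73, against a median of -0.033 over all genes tested. In Neurog:WRPW vs. lacZ it had a median of -0.15, with a range of -0.47 to 0.67, against -0.017 over all genes. The standard error of these differences had a median of 0.45 for Neurog vs. lacZ and 0.44 for Neurog:WRPW vs. lacZ. At the same thresholds, 29 of the 30 genes passed in Neurog vs. lacZ, where 4.36% of all genes tested passed upward. The exception was KH.L96.82. In Neurog:WRPW vs. lacZ 0 of the 30 passed, where 1.51% of all genes passed in either direction and 1.19% downward. Both counts follow from the way the genes were chosen. With Benjamini-Hochberg adjustment of the p-values of edgeR's quasi-likelihood test, 0 genes were under 0.05 in either comparison, while an unadjusted p under 0.05 was reached by 771 genes for Neurog and by 191 for Neurog:WRPW. With DESeq2, 220 genes had an adjusted p under 0.05 for Neurog and 4 for Neurog:WRPW, in either direction. In the quasi-likelihood test with the replicate number as a block, 179 genes did for Neurog and 0 for Neurog:WRPW. The labels and methods do not say that these numbers mark a batch. Both comparisons share the lacZ libraries.

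**Figure D3:**
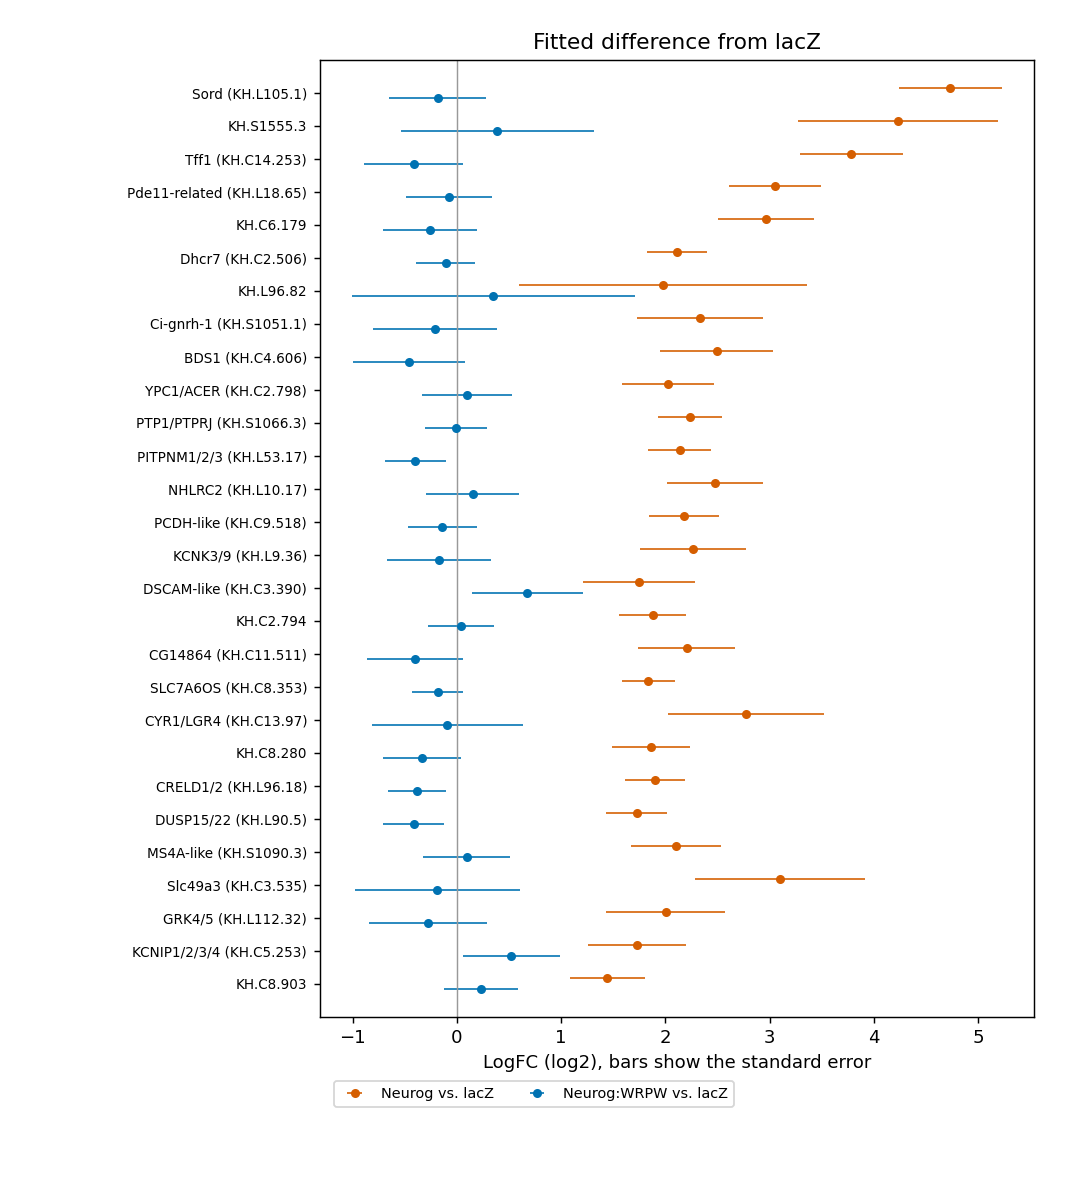
LogFC (log2) of 28 of the 30 genes for Neurog vs. lacZ (orange) and Neurog:WRPW vs. lacZ (blue), with bars for 1 standard error from the fit. The orange points lie between 1.44 and 4.73 and the blue points between -0.46 and 0.67, and 23 of the blue points lie within 1 standard error of 0.

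Genes for enzymes of metabolism held the gene with the largest rise. Of 41 genes on the list of enzymes, 25 passed the thresholds upward and 0 downward in Neurog vs. lacZ, 2 passed downward and 0 upward in Neurog:WRPW vs. lacZ, and 3 are among the 30 genes. This list and those below hold only genes that the study's tables name, and the copy used here starts from the strongest rises, so they show nothing of genes that did not rise. *Sord* (KH.L105.1), named after sorbitol dehydrogenase, which turns sorbitol into fructose, had 64.5 and 84.1 CPM in Neurog, 1.99 and 2.13 CPM in the libraries labelled Neurog:WRPW, and 1.53 and 3.35 CPM in lacZ. Both Neurog:WRPW libraries thus lay between the lacZ libraries, and the mean in Neurog was 30.5 times that in lacZ, the highest such ratio of the 30. The Neurog:WRPW values rest on 39 and 22 counts and the lacZ values on 26 and 82 counts. The LogFC was 4.73 ± 0.49 (SE) for Neurog vs. lacZ and -0.19 ± 0.46 for Neurog:WRPW vs. lacZ.

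*Dhcr7* (KH.C2.506), whose human counterpart makes cholesterol in the last step of its synthesis, had the most even levels of the 3 enzyme genes. It had 243 and 243.3 CPM in Neurog, 39.6 and 47.6 CPM in the libraries labelled Neurog:WRPW, and 45.2 and 56 CPM in lacZ. The Neurog libraries did not differ by more than 1 CPM, and the other groups overlapped. Its LogFC was 2.11 ± 0.29 for Neurog vs. lacZ and -0.11 ± 0.28 for Neurog:WRPW vs. lacZ. KH.C2.798, named after the yeast ceramidase *YPC1* and with the human alkaline ceramidases *ACER1*, *ACER2* and *ACER3* as BLAST hits, belongs to enzymes that split ceramide into sphingosine and a fatty acid. It had 149.2 and 196.8 CPM in Neurog, 23.2 and 51.8 CPM in the libraries labelled Neurog:WRPW, and 41 and 36.1 CPM in lacZ. Its mean ratio of Neurog:WRPW to lacZ of 0.972 thus averaged 1 library below both lacZ libraries and 1 above both.

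Signaling genes had members that act on cyclic nucleotides and on G protein-coupled receptors. Of 44 genes on the list of receptors and G protein signaling, 27 passed upward and 0 downward in Neurog vs. lacZ, 6 passed downward and 0 upward in Neurog:WRPW vs. lacZ, and 3 are among the 30. *Pde11-related* (KH.L18.65) has human phosphodiesterases, enzymes that break down cyclic nucleotides, as BLAST hits. It had 443.3 and 337.1 CPM in Neurog, 50.8 and 25.6 CPM in the libraries labelled Neurog:WRPW, and 58.5 and 29.1 CPM in lacZ. Replicate 1 was higher than replicate 2 in each group, and by about as much in Neurog:WRPW as in lacZ, so the same-numbered libraries had ratios of 0.868 and 0.878. Its LogFC was 3.05 ± 0.44 for Neurog vs. lacZ and -0.078 ± 0.41 for Neurog:WRPW vs. lacZ.

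KH.C13.97 (named *CYR1*), with the R-spondin receptor *LGR4* and the synaptic adhesion gene *LRRTM3* among its BLAST hits, had 60.1 and 27.1 CPM in Neurog, 8.13 and 2.13 CPM in the libraries labelled Neurog:WRPW, and 8.71 and 3.35 CPM in lacZ. It showed the same order of replicates, and its replicates differed over 2-fold in all 3 groups. KH.L112.32, named after the kinases *GRK4/5*, which phosphorylate active G protein-coupled receptors, had 16.4 and 18.5 CPM in Neurog, 2.71 and 3.3 CPM in the libraries labelled Neurog:WRPW, and 6.24 and 1.92 CPM in lacZ. The lacZ libraries stood further apart than the Neurog:WRPW libraries, which lay between them.

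The peptide gene *Ci-gnrh-1* (KH.S1051.1), named after gonadotropin-releasing hormone, which in vertebrates stimulates the pituitary, had 16.9 and 16.5 CPM in Neurog, 3.48 and 1.36 CPM in the libraries labelled Neurog:WRPW, and 4.47 and 1.71 CPM in lacZ. The Neurog libraries were alike, and in both other groups replicate 1 was over 2 times replicate 2. Its LogFC was 2.33 ± 0.60 for Neurog vs. lacZ and -0.21 ± 0.59 for Neurog:WRPW vs. lacZ.

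Ion channels were represented by a channel and by a channel partner. Of 37 genes on the list of ion channels and gap junctions, 17 passed upward and 0 downward in Neurog vs. lacZ, 3 passed downward and 0 upward in Neurog:WRPW vs. lacZ, and 2 are among the 30. KH.L9.36 is named after *KCNK3/9*, acid-sensitive potassium leak channels that help set the resting potential. It had 35.7 and 31.2 CPM in Neurog, 4.4 and 6.01 CPM in the libraries labelled Neurog:WRPW, and 9.71 and 3.39 CPM in lacZ. The Neurog:WRPW libraries again lay between lacZ libraries that differed over 2-fold. KH.C5.253 is named after the calcium sensors *KCNIP1/2/3/4*, which bind and tune voltage-gated potassium channels. It had 36.3 and 27.3 CPM in Neurog, 7.31 and 15.7 CPM in the libraries labelled Neurog:WRPW, and 10.5 and 7.23 CPM in lacZ. Here the second Neurog:WRPW library was above both lacZ libraries, and the mean ratio was 1.3. Without Neurog:WRPW replicate 1 the LogFC in Neurog:WRPW vs. lacZ was 1.03 ± 0.38 in place of 0.52 ± 0.47 and passed the thresholds, as it did for KH.C3.390 (1.24 ± 0.42 in place of 0.67 ± 0.53) and KH.S1555.3 (1.33 ± 0.49 in place of 0.39 ± 0.92). KH.L96.82 passed downward without that library, since the library left had 0 counts.

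Membrane transporters included the gene with the least even rise between replicates. Of 32 genes on the list of membrane transporters, 19 passed upward and 0 downward in Neurog vs. lacZ, 3 passed downward and 0 upward in Neurog:WRPW vs. lacZ, and 4 are among the 30, of which 2 are described. KH.L53.17 is named after *PITPNM1/2/3* and is on the list by its BLAST hits to these genes. Their proteins move phosphatidylinositol between membranes and are not transporters across a membrane. It had 182.5 and 141.2 CPM in Neurog, 28 and 19.5 CPM in the libraries labelled Neurog:WRPW, and 40.4 and 27.4 CPM in lacZ. *Slc49a3* (KH.C3.535), a transporter gene annotated as unclear by ISH, had the least even rise of the 30, with 5.96 and 34.2 CPM in Neurog, 1.53 and 1.84 CPM in the libraries labelled Neurog:WRPW, and 2.24 and 1.92 CPM in lacZ. Neurog replicate 2 alone carried most of its rise. Without that library its LogFC in Neurog vs. lacZ was 1.43 ± 0.72 in place of 3.10 ± 0.81 and no longer passed the thresholds. KH.C8.876, with the same 3 human BLAST hits as *Slc49a3*, had 216.1 and 108.5 CPM in Neurog, 49.3 and 26.4 CPM in the libraries labelled Neurog:WRPW, and 97.6 and 45.3 CPM in lacZ.

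Adhesion and guidance genes gave 4 of the 30, from a list of 33 genes of which 18 passed upward and 0 downward in Neurog vs. lacZ and 4 passed downward and 0 upward in Neurog:WRPW vs. lacZ. KH.S1066.3, with the receptor tyrosine phosphatase *PTPRJ* as a BLAST hit, had 156.2 and 193 CPM in Neurog, 30.3 and 31.3 CPM in the libraries labelled Neurog:WRPW, and 44.2 and 24.1 CPM in lacZ. Its LogFC in Neurog:WRPW vs. lacZ, -0.0090 ± 0.30, was the nearest to 0 of the 30. KH.C9.518, with protocadherins, which join neighboring cells, as BLAST hits, had 47.6 and 73.9 CPM in Neurog, 8.64 and 11.6 CPM in the libraries labelled Neurog:WRPW, and 14.1 and 10.3 CPM in lacZ. In both genes the single Neurog:WRPW libraries also lay within the band. KH.C13.97, given above with the receptors, is the third gene of this list.

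KH.L96.18, named after *CRELD1/2* and placed on the list by its BLAST hit to the matrix gene *HMCN1*, was the most abundant of the 30. It had 517.9 and 398.2 CPM in Neurog, 85.1 and 73.9 CPM in the libraries labelled Neurog:WRPW, and 137.9 and 88 CPM in lacZ. Both Neurog:WRPW libraries were below both lacZ libraries, at a mean ratio of 0.704. KH.C3.390, named after the cell adhesion gene *DSCAM* but with *IGFN1*, *IGSF22* and *TTN* as BLAST hits, is on none of the lists and had the highest mean ratio of Neurog:WRPW to lacZ, 1.47. It had 18.1 and 19.7 CPM in Neurog, 4.29 and 10.6 CPM in the libraries labelled Neurog:WRPW, and 4.42 and 5.67 CPM in lacZ. Only the second Neurog:WRPW library, at 2.09 times the lacZ mean, was above both lacZ libraries.

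On the other lists, 0 genes met the rule among 22 genes of vesicle release, 24 of the cytoskeleton and small GTPase regulators and 20 transcription factors, while 18, 18 and 8 of these passed upward in Neurog vs. lacZ. Of the same lists, 3, 7 and 7 genes met the bounds on Neurog and lacZ, so few could meet the whole rule. On the lists given above, these bounds were met by 7 enzyme, 9 receptor, 11 ion channel, 7 transporter and 7 adhesion genes. Of all 136 genes that met them, 24.3% lay in the band. *Neurog*, a transcription factor gene, and *Dpysl*, whose family binds tubulin, meet the bounds and were left out by name. The lists are short and the differences between them were not tested.

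*Tff1* (KH.C14.253), named after a trefoil factor, a small secreted protein of mucous epithelia, had 31.6 and 31.7 CPM in Neurog, 1.53 and 1.36 CPM in the libraries labelled Neurog:WRPW, and 3.12 and 1.18 CPM in lacZ. Its mean in Neurog was 14.7 times that in lacZ, and it lies nearest to the lower bound, at a mean ratio of Neurog:WRPW to lacZ of 0.672. KH.S1555.3, with neither a name nor a human BLAST hit and annotated as negative by ISH, had 19 and 30.6 CPM in Neurog, 0.307 and 2.62 CPM in the libraries labelled Neurog:WRPW, and 1.118 and 1.225 CPM in lacZ. Its Neurog:WRPW libraries, with 6 and 27 counts, lay on either side of lacZ. Leaving out Neurog:WRPW replicate 2 turned its LogFC in Neurog:WRPW vs. lacZ to -1.89 ± 0.61, past the thresholds.

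Of the remaining genes with no name and no human BLAST hit, KH.C6.179 had 17 and 29.5 CPM in Neurog, 2.2 and 1.94 CPM in the libraries labelled Neurog:WRPW, and 3.53 and 1.92 CPM in lacZ. KH.L96.82 had 6.82 and 8.98 CPM in Neurog, 4.34 and 0 CPM in the libraries labelled Neurog:WRPW, and 1.77 and 1.84 CPM in lacZ. The 0 counts of its second Neurog:WRPW library allow up to 0.291 CPM at a floor of 3 counts, so the mean ratio of 1.206 averages a library above lacZ and one below it. KH.C8.903, nearest to the bound on Neurog at 2.61 times, had 13.3 and 16.6 CPM in Neurog, 5.98 and 4.85 CPM in the libraries labelled Neurog:WRPW, and 4.77 and 5.1 CPM in lacZ. Its replicates were close to each other in every group.

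KH.S1090.3, with the membrane protein gene *MS4A8* as its human BLAST hit, was among the most abundant, at 139.7 and 229.9 CPM in Neurog, 51.5 and 26.2 CPM in the libraries labelled Neurog:WRPW, and 52 and 27 CPM in lacZ. Like *Pde11-related*, its Neurog:WRPW libraries followed the lacZ libraries of the same number. KH.C8.353 (*SLC7A6OS*), which despite its symbol encodes no transporter and is related to a yeast factor for the nuclear import of RNA polymerase, had 173.6 and 141.2 CPM in Neurog, 32.7 and 32.6 CPM in the libraries labelled Neurog:WRPW, and 45.3 and 35.4 CPM in lacZ. KH.C4.606 (*BDS1*) had 23 and 10.8 CPM in Neurog, 2.35 and 1.36 CPM in the libraries labelled Neurog:WRPW, and 2.94 and 2.57 CPM in lacZ. Both of these had their Neurog:WRPW libraries below both lacZ libraries.

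The others, KH.L10.17 (*NHLRC2*), KH.C2.794, KH.C11.511 (*CG14864*), KH.C8.280 and KH.L90.5 (*DUSP15/22*), had 19.4 to 53.1 CPM in Neurog, 3.68 to 12.3 CPM in the libraries labelled Neurog:WRPW and 3.84 to 14.8 CPM in lacZ. Of these 5, KH.C8.280 and KH.L90.5 were below both lacZ libraries in both Neurog:WRPW libraries. *NHLRC2* had a mean ratio of Neurog:WRPW to lacZ of 1.002, while its lacZ libraries, at 9.48 and 4.65 CPM, differed over 2-fold.

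The position of the Neurog:WRPW libraries depended on which lacZ library they were set against. The replicates differed over 2-fold in 3 of the 30 genes in Neurog, in 7 in the libraries labelled Neurog:WRPW and in 9 in lacZ. The shares of all genes that differed as much were not counted. LacZ replicate 1 was higher than lacZ replicate 2 in 24 of the 30 genes, where this held for 63.8% of all genes tested. Against the lacZ library of the same number, Neurog:WRPW replicate 1 was lower in 26 of 30 genes, with a median ratio of 0.69, and Neurog:WRPW replicate 2 was lower in 16 of 30, with a median ratio of 0.978. Over all genes at the floor these medians were 0.909 and 0.913, also under 1. The shares of all genes that were lower were not counted, so the 26 and 16 are description only. Without lacZ replicate 1 the median LogFC of the 30 genes in Neurog:WRPW vs. lacZ was 0.24, and without lacZ replicate 2 it was -0.29. Its sign therefore rested on lacZ replicate 1. Whether same-numbered libraries share a batch is given neither by the labels nor by the methods.

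**Figure D4:**
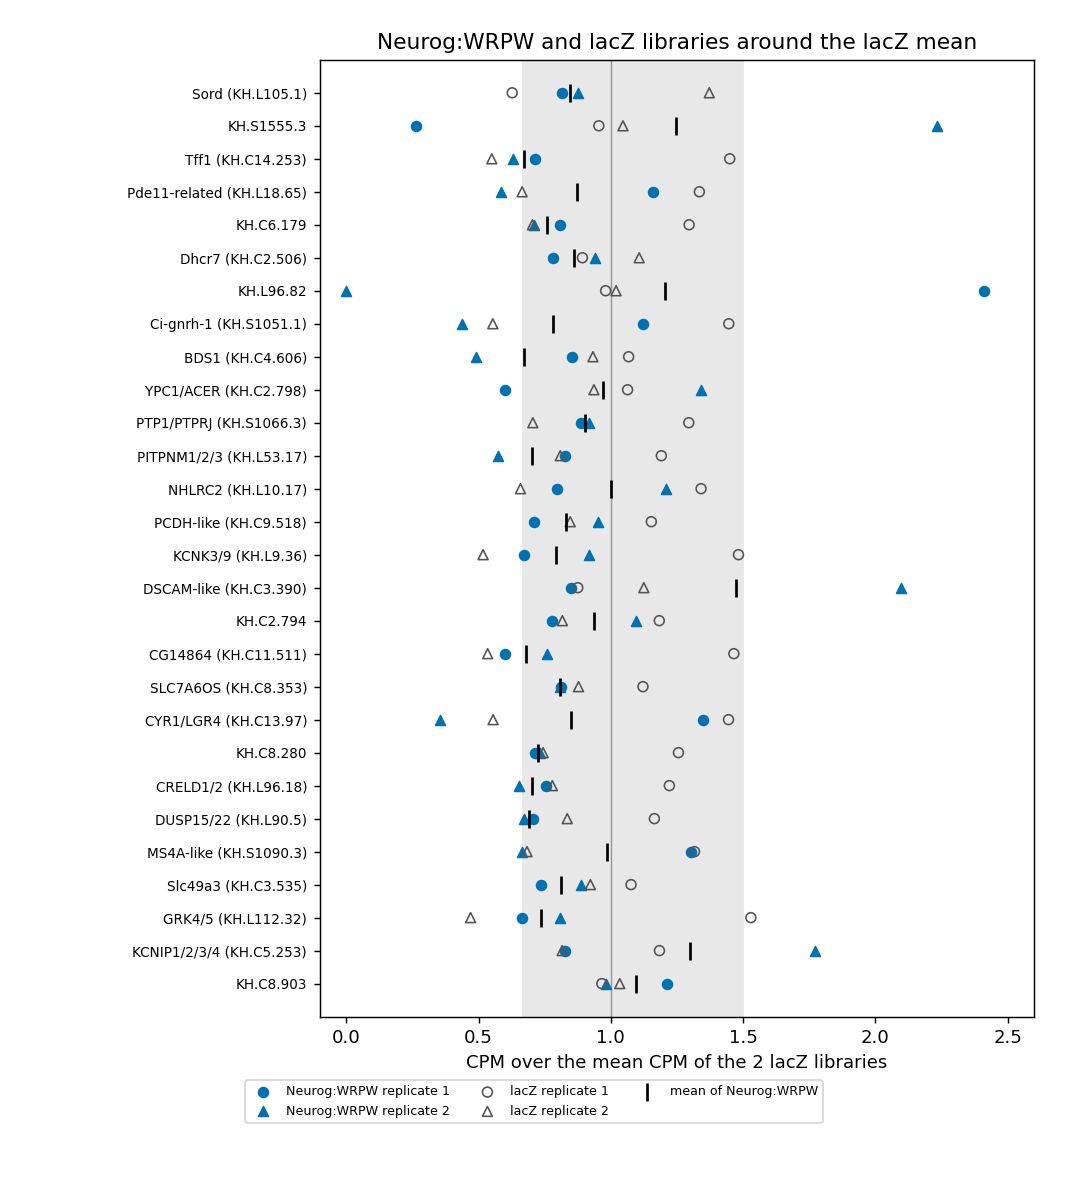
CPM of the Neurog:WRPW libraries (filled blue) and the lacZ libraries (open grey) over the mean CPM of the lacZ libraries, for 28 of the 30 genes (linear axis, no unit), with a black bar at the mean of Neurog:WRPW and grey shading from 0.67 to 1.5. All black bars lie in the shading by the rule, while 15 of the 28 genes have 1 or both blue points outside it, and the lacZ libraries themselves lie far from 1 in many rows.

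Levels can be compared between genes only per length of exon. In Neurog, KH.L96.18 had the highest level of the 30 at 292.7 CPM per kb, followed by KH.S1090.3 at 223.5, KH.S1066.3 at 158.3, *Dhcr7* at 135.9 and KH.C2.798 at 133.9 CPM per kb. The replicates of KH.L96.18 and KH.S1090.3 overlapped in level, as did those of KH.S1090.3 and KH.S1066.3 and those of *Dhcr7* and KH.C2.798, so these neighbors in the order do not differ beyond their spread. The lowest was KH.L96.82 at 3.84 CPM per kb. In lacZ the median level of the 30 genes was 3.65 CPM per kb, against 7.02 CPM per kb for the 100 genes that were below the band and 10.4 CPM per kb for all genes at the floor. In Neurog the medians were 24.2 CPM per kb for the 30 and 48.95 CPM per kb for the 100. These differences were not tested. A total of 11 of the 30 genes had under 50 counts in a lacZ or Neurog:WRPW library. The median exon length was 1785 bases for the 30, 1852 bases for the 100 and 1848 bases for all genes tested.

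By ISH, 3 of 48 genes annotated in BTNs are among the 30, as are 2 of 28 annotated as negative and 1 of 30 annotated as unclear, and 0 of 15 annotated in other CNS neurons and 0 of 13 in other tissues. In the same order, 24, 8, 14, 7 and 2 of these genes met the bounds on Neurog and lacZ, so few could meet the whole rule. Of all 136 genes that met those bounds, 24.3% lay in the band. The ISH genes were picked on these same libraries, in part for a fall in Neurog:WRPW, so the share of the 30 among them is no independent evidence. In Neurog:WRPW vs. lacZ, *Sord* was at a LogFC of -0.19, *Pde11-related* at -0.078 and *Dhcr7* at -0.11, while the 48 BTN genes had a median of -1.34. *Sord* has a relative with the same 3 human BLAST hits, *Adh-related* (KH.L170.62), which is also annotated in BTNs. It had 139.4 and 30.9 CPM in Neurog, 16.4 and 2.81 CPM in the libraries labelled Neurog:WRPW, and 33.8 and 16.6 CPM in lacZ. Both of its Neurog:WRPW libraries were below both lacZ libraries, replicate 1 only just (16.4 CPM against 16.6 CPM in lacZ replicate 2). The LogFC of *Adh-related* in Neurog:WRPW vs. lacZ was -1.275 ± 0.94 (SE). The mean ratio of Neurog:WRPW to lacZ was 0.846 for *Sord*, where the rule bounded it, and 0.381 for *Adh-related*. The longest identical run in the probe templates of the 2 genes is 8 bases. The difference between them was not tested.

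Markers of other cells were also higher in Neurog and lower in the libraries labelled Neurog:WRPW in their summed level. The summed level of the 15 genes annotated in other CNS neurons was 1880 and 1756 CPM in Neurog, 247.7 and 219.4 CPM in the libraries labelled Neurog:WRPW, and 494.7 and 437.1 CPM in lacZ. That of the 13 genes annotated in other tissues was 755.3 and 715.9 CPM in Neurog, 138.9 and 103 CPM in the libraries labelled Neurog:WRPW, and 290.8 and 230.3 CPM in lacZ. Of the 15, 13 passed upward in Neurog vs. lacZ and 6 downward in Neurog:WRPW vs. lacZ, and of the 13, 11 and 7 did, while 1 of the 13 passed upward in Neurog:WRPW vs. lacZ. Over all genes tested, 4.36% passed upward in Neurog vs. lacZ and 1.19% downward in Neurog:WRPW vs. lacZ. These lists too were picked on these libraries. In each of these lists 2 genes were at 0 in at least 1 library. Their part in the levels of the 30 genes was not tested.

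The bounds separate genes of similar value. Just inside the lower bound, *Tff1* and KH.C4.606 had a mean ratio of Neurog:WRPW to lacZ of 0.672, while KH.C11.483 (*NDRG1/2/3/4*) at 0.667 and KH.L18.39 at 0.666 are outside. KH.C11.483 had 542.7 and 611.1 CPM in Neurog, 51.7 and 81.9 CPM in the libraries labelled Neurog:WRPW, and 120.4 and 80 CPM in lacZ. Inside the upper bound, KH.C3.390 was at 1.47 and KH.C5.253 at 1.3, while KH.C3.315 at 1.54 and KH.C2.136 at 2.26 are outside. Inside the bound on the ratio of the lower Neurog to the higher lacZ library, KH.C8.903 was at 2.606 and KH.C5.253 at 2.608, while KH.C10.198 at 2.482 and KH.C2.879 at 2.481 are outside.

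Of the genes left out by name, *Neurog*, *Dpysl* and *Fgf20* meet the bounds. *Dpysl* (KH.C2.307), of a family that binds tubulin during axon growth, had 46.9 and 46.5 CPM in Neurog, 2.71 and 4.56 CPM in the libraries labelled Neurog:WRPW, and 6.89 and 3.22 CPM in lacZ. *Fgf20* (KH.C14.70), a fibroblast growth factor gene, had 46 and 26.3 CPM in Neurog, 2.56 and 2.52 CPM in the libraries labelled Neurog:WRPW, and 2.65 and 3.92 CPM in lacZ. Their mean ratios of Neurog:WRPW to lacZ, 0.719 and 0.773, are within the range of the 30. *Calcr* (KH.C3.635), a peptide hormone receptor gene, fails the floor with 0.735 CPM in lacZ replicate 2.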

How the data were processed

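Of the 6 libraries (3 conditions, 2 replicates each), the authors deposited 1 table of raw counts per gene model, not normalized and not pooled, with the exon length of each model in bases. Reads from amplified cDNA were mapped with STAR 2.5.2b and counted over KyotoHoya (KH) gene models with featureCounts after duplicates were removed. Neither the assembly version nor the strand setting is given in the sources used here. Reads of overlapping, antisense or closely related genes may thus be shared. Totals ranged from 10315548 to 24499397 counts. Groups and replicate numbers came from the labels, and every count column was used.

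CPM was computed on the column totals. Genes over 1 CPM in at least 2 libraries, 12253 in all, were scaled by TMM and fitted in 1 quasi-likelihood model of the 3 conditions (edgeR 4.0.16 under R 4.3.3). The thresholds are those of the study. Standard errors were taken as LogFC over the square root of F. The biological coefficient of variation was 0.421. With 2 replicates a group, unadjusted p-values rest on a spread pooled over genes.

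The members, the role lists (human symbols matched to BLAST hits) and the rule for named genes were chosen with earlier results of these data known. Named are members with an ISH annotation, the 4 with the largest rise per role list, the 10 with the largest rise, the 5 most abundant and those next to each bound. Of the members that this rule names, 2 are not reported here, though they are counted among the 30. Other members were named to account for the group. Gene names, BLAST hits and probe templates come from the study's tables, of which the copies used here hold 1118 and 134 genes and the first 399 bases of a template. No KH identifier matched the reference table of gene names. Alternatives covered scaling, filter, replicate block, DESeq2 1.42.0, fits of only the 2 groups compared, each library left out and the bounds of the rule.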

Additional observations from a re-analysis of the deposited data

How the results depend on the processing

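Under all 12 alternatives to the fit, the LogFC in Neurog vs. lacZ stayed above 0 for all 30 genes. The rule set the lower Neurog library at 2.5 times the higher lacZ library or more, so this sign was fixed beforehand. The calls below follow from the same choice. The sign in Neurog:WRPW vs. lacZ held under all 12 for only 8 genes. With both Neurog and both lacZ libraries kept, the number past the thresholds in Neurog vs. lacZ was 29 or 30. KH.L96.82 had no call in the main fit. A call of the main fit was lost only with a Neurog or lacZ library left out. KH.C13.97 lost it without Neurog replicate 1 and without lacZ replicate 2 (LogFC 2.07 and 2.29), KH.C3.390 without Neurog replicate 2 and without lacZ replicate 1 (1.73 and 1.53), *Slc49a3* without Neurog replicate 2 and KH.C5.253 without lacZ replicate 2 (1.56). In Neurog:WRPW vs. lacZ, 0 of the 30 passed except with a Neurog:WRPW library left out, which gave 0 to 4 over the libraries left out: 4 without Neurog:WRPW replicate 1 (KH.C3.390, KH.C5.253 and KH.S1555.3 upward and KH.L96.82 downward) and 1 without replicate 2 (KH.S1555.3, downward). Leaving out Neurog:WRPW replicate 1 also raised the number of downward calls over all genes, as given below. Upward calls over all genes were not counted in these fits. The calls with a Neurog:WRPW library left out are therefore not shown to be particular to the 30. The median LogFC over the 30 was 2.04 to 2.54 in Neurog vs. lacZ and -0.29 to 0.24 in Neurog:WRPW vs. lacZ as libraries were left out. The cause was not tested.

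The rule found 35 genes on TMM-scaled or size-factor-scaled CPM, sharing 27 with the 30, and 14 with both Neurog:WRPW libraries required in the band. It found 24 to 211 genes as libraries were left out: 61 and 142 without Neurog replicates 1 and 2, 24 and 54 without Neurog:WRPW replicates 1 and 2, and 211 and 38 without lacZ replicates 1 and 2. Of the 30, 17 were found again without Neurog:WRPW replicate 1, 25 without replicate 2, 23 without lacZ replicate 1 and 15 without lacZ replicate 2.

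Over all genes, 534 were upregulated in Neurog vs. lacZ and 146 downregulated in Neurog:WRPW vs. lacZ. With the replicate number as a block these were 813 and 435, 179 and 0 genes were at an adjusted p under 0.05, and 29 and 0 of the 30 passed the thresholds. Of the 30, 17 were at an adjusted p under 0.05 in Neurog vs. lacZ with the block and 26 with DESeq2. The 30 were chosen by this difference in the same libraries, so these counts are description only. Leaving out 1 library gave 231 to 655 (294 without Neurog replicate 1 and 231 without lacZ replicate 2) and 79 to 958 (958 without Neurog:WRPW replicate 1 and 79 without lacZ replicate 1). The deviations of same-numbered libraries correlated at 0.56 to 0.626 over 7982 genes between groups, but only the data hint at a pairing, and the main fit used none. Leaving out 1 library assumes that the lone library varies like the others. Counts under 50 limit 11 of the 30 genes.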
